A study of Mus musculus with 4 samples.

Results

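Partly methylated clusters of intermediate CpG density are short runs of CpGs that carried neither full nor absent DNA methylation in mouse embryonic fibroblasts (MEFs) early in induced reprogramming. A cluster was a run of at least 3 CpGs, each with at least 10 reads in all 4 libraries and at most 100 bp from its neighbour. Each CpG was given a density, counting itself and all CpGs up to 100 bp away that at least 1 library listed, and the density of a cluster was the mean over its CpGs. The clusters were selected on measured methylation: the rule kept autosomal clusters with a density over 4 and under 12 and a methylation level, pooled over the 0-division and 1-division libraries, of at least 20% and under 60%. It kept 4642 of 99566 clusters, which is 4.88% of the 95090 autosomal clusters and 9.11% of the 50949 autosomal clusters of intermediate density. The 4642 clusters held 24448 CpGs. They had 3 to 31 CpGs each, with a median of 5, and spanned 6 to 689 bp, with a median of 88 bp and a mean density of 6.67.

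The study asked how DNA methylation changes in the first days of reprogramming and whether a change goes with cell division. All cells were secondary, inducible MEFs of a 129/SvJ x C57/B6 hybrid background, in which doxycycline switches on the reprogramming factors. The 4 groups had 1 library each: uninduced control MEFs, and MEFs held in doxycycline for 96 hours that had passed through an average of 0 divisions, of 1 division, or of more than 3 divisions. The labels of the last group differ between fields, since its title and cohort give more than 3 divisions and its description gives 3 or more; it is called >3-division here. The labels name media with 10%, 15% and 0.5% serum, the last for starvation, without saying which cohort was starved, so serum and division number cannot be told apart. They do not say how the cohorts were obtained, how many animals or cultures each library came from, or which factors were induced. The libraries hold DNA reads only, so markers of the cell type were not measured, and a level of a bulk library cannot tell a mixture of methylated and unmethylated cells from a mixture of alleles within cells.

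DNA methylation in mammals sits mostly on the cytosine of CpG pairs. It is copied onto the new strand after replication by the maintenance enzyme Dnmt1 and is lost either when copying fails over rounds of division or when Tet enzymes oxidise the base. Most of the genome is highly methylated, CpG islands are mostly unmethylated, and levels in between are typical of island shores, of distal regulatory elements and of imprinted regions, where the parental alleles differ. Reduced representation bisulfite sequencing (RRBS) reads short fragments cut at CCGG by the enzyme MspI, here fragments of 40 to 220 bp, after bisulfite has converted unmethylated cytosines.

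The deposited positions are on mm9, for which no genome or annotation was used here, and cluster positions are printed as the authors list them; whether they count from 0 or 1 is not stated. Genes were therefore assigned from sequence alone, by finding promoters whose CpG spacing was the same as that of the listed CpGs. A match needed at least 7 consecutive listed CpGs whose spacing was identical to that in the 250 bases before and 50 bases after an annotated start in RefSeq (GRCm38.p6), on the same chromosome. Of the partly methylated clusters, 1406 spanned at least 7 listed CpGs, and 40 of them matched the promoter of 40 genes. The 9 sequences below include the 4 promoters whose clusters were lower and the 2 whose clusters were higher in the >3-division library. Hoxd10, Pax6 and Snx10 were under 20% in control and the >3-division library and met the rule through libraries that it used. Their differences between libraries can come from the selection and are not read as a change. The last 3 were chosen after their values were seen. Each is RefSeq sequence of GRCm38.p6, printed 5′ to 3′ on the strand of the gene, and capitals mark the CpGs that belong to the cluster.
Gnas, chr2:174284167-174284281, plus strand: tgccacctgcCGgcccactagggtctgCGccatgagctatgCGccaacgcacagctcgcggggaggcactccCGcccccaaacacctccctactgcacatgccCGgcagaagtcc
Mkrn3, chr7:62420210-62420337, minus strand: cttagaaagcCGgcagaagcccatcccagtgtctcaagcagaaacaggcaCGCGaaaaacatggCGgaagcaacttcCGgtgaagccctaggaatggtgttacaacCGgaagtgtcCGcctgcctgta
Gm3134, chr8:89041206-89041292, plus strand: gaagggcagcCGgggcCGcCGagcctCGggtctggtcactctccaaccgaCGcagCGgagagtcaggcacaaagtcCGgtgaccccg
Ptpn20, chr14:33589206-33589317, plus strand: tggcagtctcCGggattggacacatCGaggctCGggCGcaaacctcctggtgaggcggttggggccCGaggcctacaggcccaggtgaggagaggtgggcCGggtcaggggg
Tmem59l, chr8:70487346-70487454, minus strand: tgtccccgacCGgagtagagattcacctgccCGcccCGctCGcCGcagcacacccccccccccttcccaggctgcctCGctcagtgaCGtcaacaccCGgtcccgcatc
Dpep1, chr8:123186169-123186259, plus strand: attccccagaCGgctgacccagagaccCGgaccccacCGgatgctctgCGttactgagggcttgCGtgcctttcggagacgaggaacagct
Hoxd10, chr2:74691721-74691922, plus strand: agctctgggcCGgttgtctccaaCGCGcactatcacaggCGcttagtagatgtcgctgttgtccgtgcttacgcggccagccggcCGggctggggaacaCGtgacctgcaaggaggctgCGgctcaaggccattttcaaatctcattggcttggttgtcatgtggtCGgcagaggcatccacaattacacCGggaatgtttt
Pax6, chr2:105682251-105682385, plus strand: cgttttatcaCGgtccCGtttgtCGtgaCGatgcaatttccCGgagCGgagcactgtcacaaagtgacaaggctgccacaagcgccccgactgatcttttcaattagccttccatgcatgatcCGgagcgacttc
Snx10, chr6:51524006-51524086, plus strand: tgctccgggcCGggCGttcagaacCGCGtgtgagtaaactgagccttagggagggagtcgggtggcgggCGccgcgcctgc
The capitals leave out 1 of the 7 CpGs of the Ptpn20 cluster and 1 of the 6 of the Dpep1 cluster, which lie past the end of the promoter window. The motif CCGG, which reads the same on both strands and is the MspI site, occurred in 40 of the 40 matched windows and in 52.8% of all 32851 promoter windows. Because RRBS reads fragments cut at this site, the share in matched windows is largely set by the assay and is not a trait of these promoters.

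Read depth over the partly methylated clusters was alike in the 4 libraries, at a median of 325 reads per cluster in control, 326 in 0-division cells, 325 in 1-division cells and 333 in >3-division cells. Summed over all listed CpGs, the libraries held 84606824 to 94775128 reads. Methylated reads made up 44.4% of them in control, 44.6% in 0-division cells, 43.5% in 1-division cells and 26.0% in >3-division cells. A share of reads weights each CpG by its depth, so it is not the mean level of the CpGs. Over all clusters the pooled share was 34.5% in control and 19.3% in the >3-division library. The mean level of a cluster was 54.2% and 50.6% in the same order. Depth shifted between these libraries, and its part in the lower share of methylated reads was not tested. Over clusters of intermediate density at 80% or more, the median ratio of >3-division to control depth was 0.607, over those under 20% it was 1.61, and over the partly methylated clusters it was 1.06.

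The partly methylated clusters stayed near 40% in control, 0-division and 1-division cells and were lower in >3-division cells. Their mean methylation level was 40.05% in control, 40.11% in 0-division cells, 40.58% in 1-division cells and 33.1% in >3-division cells. The medians were 40.1%, 40.42%, 40.7% and 31.75% in the same order. The SD over clusters was 13.3 points in control, 12.3 in 0-division cells, 12.6 in 1-division cells and 14.7 in >3-division cells, and it describes the spread between clusters, not between cultures. The 0-division and 1-division levels chose the clusters, so their closeness to each other and to the band is given with no test. Against control the median difference was 0.14 points in the 0-division and 0.53 points in the 1-division library.

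**Figure D1:**
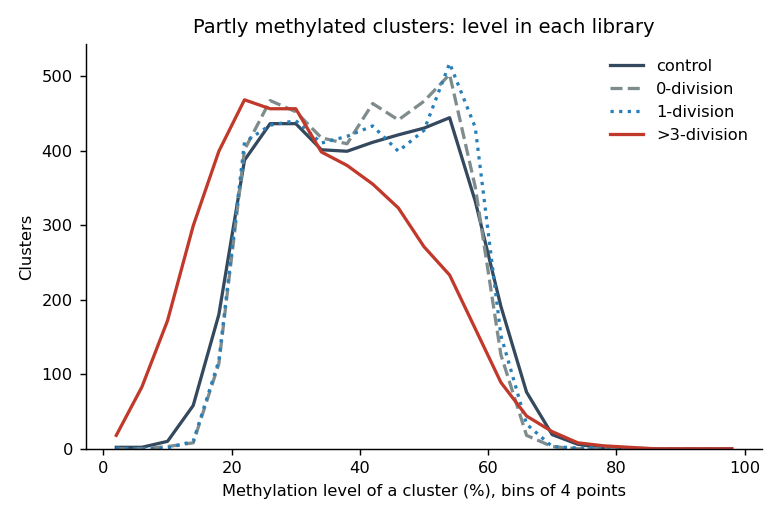
Number of partly methylated clusters (y axis) by methylation level in bins of 4 points (x axis, %), with 1 line per library. The control, 0-division and 1-division lines lie close together between 20% and 60%, while the >3-division line is shifted to lower levels, with 971 clusters under 20%.

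Fewer clusters were still partly methylated in the >3-division library. Of the 4642 clusters, 75.4% were at 20% to 60% in the >3-division library and 88.3% in control, neither of which the rule used. Under 20% there were 971 clusters in the >3-division library and 252 in control. Under 10% there were 186 in the >3-division library and 7 in control. At 60% or more there were 170 in the >3-division library and 293 in control. The clusters thus left the band mainly at its lower end, although 3501 of them remained in it. Over the 4 libraries the level of a cluster varied by under 10 points in 1889 clusters, which is 40.7%, and by over 30 points in 263.

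The comparison of the >3-division library with control does not use the values that chose the clusters. The median difference was -5.79 points and the mean -6.95 points, with quartiles of -13.6 and 0.21 points, and 3438 clusters, or 74.1%, were below control. Summed reads were tested with Fisher's exact test, two-sided, with Benjamini-Hochberg adjustment over all 99566 clusters. A cluster counted as changed where the adjusted p was under 0.05 and the libraries differed by 10 points or more, and 1403 clusters fell and 149 rose. These are 30.2% and 3.21% of the partly methylated clusters, against 11.0% and 0.577% of all clusters, with a median difference over all clusters of -1.28 points. The clusters that fell had differences of -60.2 to -10.02 points, with a median of -17.85 points, and averaged 24.3% in the >3-division library and 43.95% in control. The clusters that rose gained 10.05 to 34.4 points, with a median of 13.9 points, and averaged 52.2% in the >3-division library and 36.7% in control. A further 246 clusters passed the adjusted p with a fall of under 10 points. With 1 library a group the test compares 2 libraries and not the conditions, and reads without molecular identifiers, and CpGs that share a read, make its p-values too small. Between control and the 1-division library, read counts of these clusters varied 2.415 times as much as counting error alone. The rule used the 1-division library, so the selection may have shaped this factor, which was 1.628 over all clusters. With counts divided by 2.415, 692 clusters fell and 29 rose, or 14.9% and 0.625% of them, against 3.60% and 0.0884% of all clusters. With counts divided by 1.628, 1069 fell and 78 rose, or 23% and 1.68% of them, against 7.03% and 0.230% of all clusters.

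The difference was larger in points at middle levels of methylation, and a scale of odds gives another order. The odds ratio of methylation in the >3-division library over control, pooled over clusters, was 0.763 for the partly methylated clusters and 0.715 for all clusters. Tested against that library-wide ratio in place of no difference, and counting differences of 10 points or more from the level it predicts, 572 partly methylated clusters were lower and 625 higher, which is 12.3% and 13.5% of them, against 4.11% and 2.83% of all clusters. The excess of falls over rises thus held for a difference in points and was not seen relative to the odds ratio of the whole library, where rises were slightly more numerous.

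Among autosomal clusters of the same density, those at 60% to under 80% in the 0-division and 1-division libraries had much the same difference, with a median of -6.26 points over 7028 clusters. Of these, 27.3% fell and 1.20% rose. Clusters at 80% or more had a median of -2.75 points over 27071 clusters, and 9.58% fell. Clusters under 20% had a median of -0.238 points over 12208 clusters, and 1.20% fell. In the same level band, the 3435 CpG-poor clusters, with a density of at most 4, had a median of -7.96 points, and 32.5% of them fell. The 691 CpG-dense clusters, with a density of at least 12, had a median of -4.14 points, and 25.6% fell. The partly methylated clusters of intermediate density lay between these groups in points, and whether they differ from either was not tested.

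**Figure D2:**
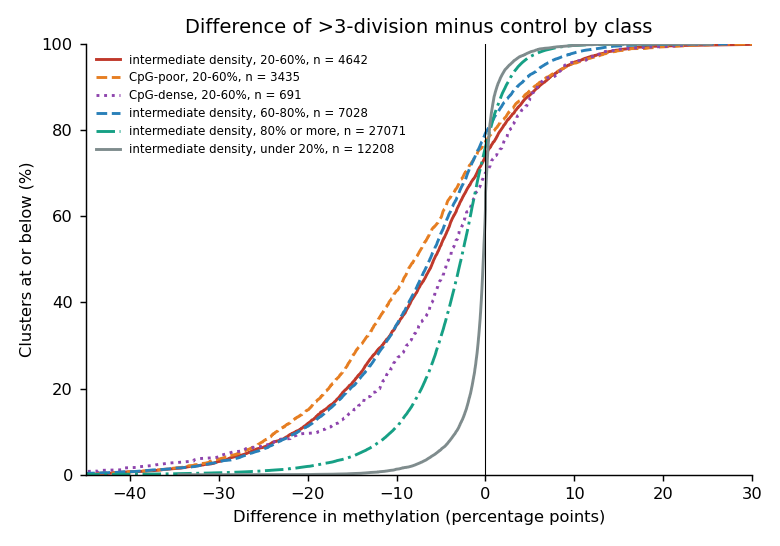
Cumulative share of clusters (y axis, %) at or below a difference of >3-division minus control (x axis, percentage points), with 1 line per class of density and level. The line of the partly methylated clusters (solid, 4642 clusters) runs with that of the 60% to 80% clusters below 0, between the CpG-poor and CpG-dense clusters of the same level band.

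The 10 clusters with the largest falls, among those with at least 50 reads in each library, went to between 2.06% and 31% in the >3-division library, against 49.9% to 74.1% in control. The cluster on chromosome 17 from 35042304 to 35042380, with 4 CpGs, was at 53.4% in control, 55.1% in 0-division cells, 56.1% in 1-division cells and 2.06% in >3-division cells. A cluster of 10 CpGs on chromosome 14, from 48699395 to 48699462, was at 53.9%, 49.2%, 48.7% and 5.05% in the same order. Both were in the upper part of the band in 3 libraries and almost unmethylated in the >3-division library. The 95% Wilson intervals, which cover counting error only, ran from 0.945% to 4.41% in the >3-division library and from 47.2% to 59.4% in control at the chromosome 17 cluster. At the chromosome 14 cluster they ran from 3.65% to 6.94% in the >3-division library and from 49.98% to 57.7% in control. The difference at the chromosome 14 cluster was -48.8 points, with an adjusted p of 9.16e-92 by Fisher's exact test with Benjamini-Hochberg adjustment.

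At the chromosome 14 cluster and at one on chromosome 2, every CpG was lower in the >3-division library. On chromosome 14 the 10 CpGs ranged from 3.57% to 6.52% in the >3-division library and from 25.8% to 63.4% in control. On chromosome 2, the 5 CpGs of the cluster from 90644787 to 90644815 were at 5.56% to 5.88% in the >3-division library and at 51.5% to 52.9% in control. This cluster was at 52.7% in control, 41.7% in 0-division cells, 52.6% in 1-division cells and 5.68% in >3-division cells. The others of the 10 lay on chromosomes 2, 4, 7, 9, 14 and 18. Of these, the chromosome 18 cluster was at 54.1% in control, 53.4% in 0-division cells, 53.4% in 1-division cells and 10.9% in >3-division cells.

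The 10 clusters with the largest rises were at 40.7% to 69.2% in the >3-division library, against 13.75% to 35.8% in control, and 4 of them lost their call at equal depth. The cluster on chromosome 2 from 170046734 to 170046786 was at 19.7% in control, 37.7% in 0-division cells, 40.3% in 1-division cells and 54.0% in >3-division cells. On chromosome 11, the cluster from 54214466 to 54214498 was at 33.3%, 42.2%, 23.1% and 67.2% in the same order. Its 6 CpGs were all higher in the >3-division library, as the plot of single CpGs shows. On chromosome 1, the cluster from 7732181 to 7732272 was at 24.4% in control, from 2101 reads, 52.2% in 0-division cells, 41.6% in 1-division cells and 52.3% in >3-division cells. Its 9 CpGs ran from 0% to 97.1% in the >3-division library and from 0.98% to 97.5% in control. With equal weight per CpG its difference of 27.9 points became -1.67 points, and at equal depth 0.973 points. Equal depth means that each CpG was thinned to the lowest of its 4 coverages. The rise on chromosome 16 at 90349721 was then 7.5 points in place of 28.5, with an adjusted p of 0.790 by Fisher's exact test. Those on chromosome 9 at 78368719 and chromosome 15 at 99051285 kept most of their size, at 25.5 points in place of 29.45 and 22.9 in place of 27.3, but no longer passed, with adjusted p of 0.0983 and 0.0791 by Fisher's exact test.

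The 5 clusters with most CpGs had 23 to 31 of them and were all lower in the >3-division library than in control. The cluster on chromosome 4 from 116493031 to 116493719 held 31 CpGs and was at 24.5% in control, 24.9% in 0-division cells, 24.4% in 1-division cells and 18.5% in >3-division cells. On chromosome 8, the cluster from 86536353 to 86536985, also with 31 CpGs, was at 39.2%, 45.6%, 39.4% and 26.8%. On chromosome 17, the cluster from 43765938 to 43766501, with 24 CpGs, was at 31.8%, 36.0%, 34.5% and 22.97%. Its single CpGs ranged from 4.23% to 83.3% in the >3-division library and from 4.55% to 86.1% in control, with the high ones at one end, as the plot of single CpGs shows. The other 2 of the 5 longest lay on chromosomes 7 and 12 and had 23 CpGs each. Of the 5, those on chromosomes 8 and 7 were called as lower, with differences of -12.4 and -10.85 points. The remaining 3 also had an adjusted p under 0.05 by Fisher's exact test, but differed by only -8.83 to -5.70 points. All 5 differences were nearer to 0 when each CpG counted alike, at -4.28 points on chromosome 8, -4.998 on chromosome 7, -1.14 on chromosome 17, -0.942 on chromosome 4 and -4.67 on chromosome 12. At equal depth they were -6.66, -7.39, -0.633, -2.40 and -6.28 points in the same order of chromosomes. Neither setting left any of the 5 with the 10 points a call needed.

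**Figure D3:**
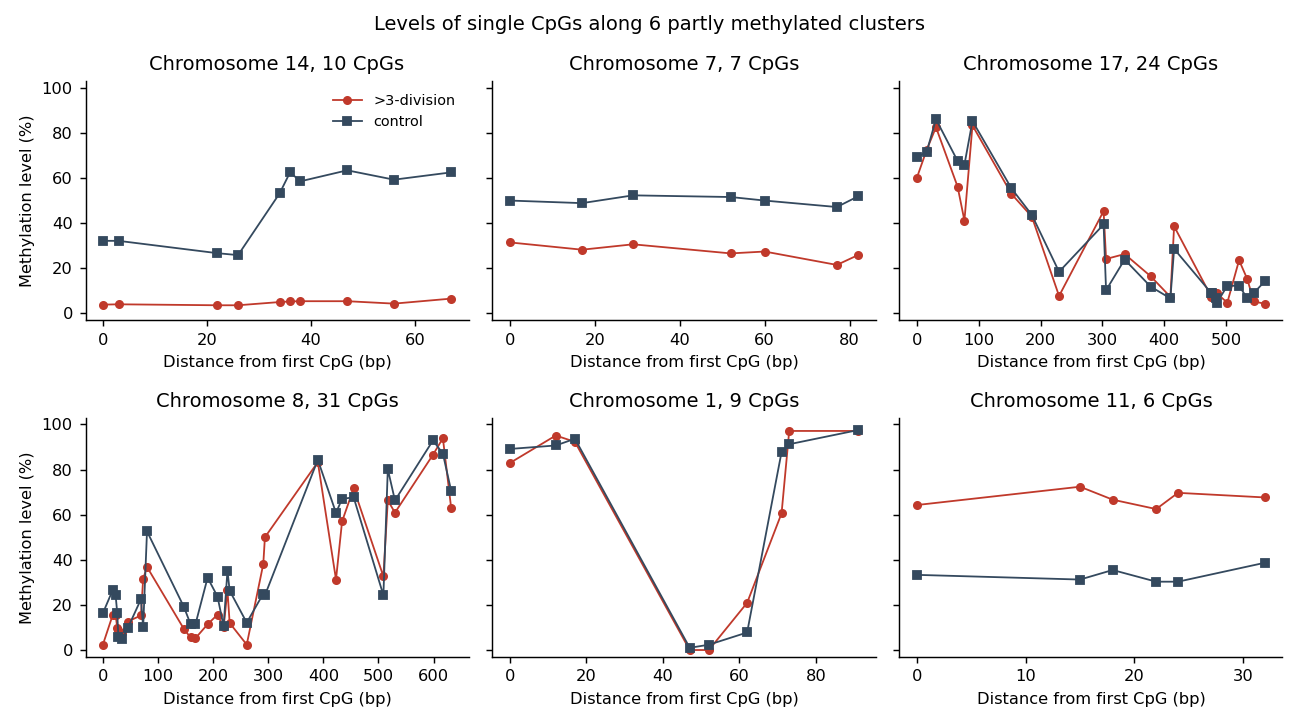
Methylation level of single CpGs (y axis, %) by distance from the first CpG (x axis, bp) in 6 partly methylated clusters, in the >3-division library (circles) and control (squares). The chromosome 14, 7 and 11 clusters moved as a whole, the chromosome 17 and 8 clusters step along their length in both libraries, and the chromosome 1 cluster has CpGs near 0% and near 97% in both.

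The CpGs of a partly methylated cluster often differed from each other. Among the 4079 clusters with at least 20 control reads at every CpG, the median range over CpGs was 37.2 points, and the middle 50% of clusters had ranges of 24.3 to 52.4 points. Clusters of the same density had a median range of 3.90 points under 20%, 34.5 points at 60% to 80% and 13.2 points at 80% or more. CpG-poor clusters of the same level band had 31.5 points and CpG-dense ones 49.5 points. A range tends to grow with the number of CpGs and includes counting error, which is largest at middle levels. The median number of CpGs was 3 in CpG-poor, 5 in partly methylated and 13 in CpG-dense clusters. The ranges were not compared at equal number of CpGs. A range was under 20 points in 710 of the 4079 clusters and over 60 points in 639. Single clusters were picked only among those with at least 5 CpGs. The widest range there belonged to the cluster on chromosome 5 from 91490681 to 91490774. Its 5 CpGs were between 0.935% and 90.6% in the >3-division library and between 0% and 100% in control. Among the narrowest there was the cluster on chromosome 7 from 24867144 to 24867226. It was at 50.3% in control, 50.3% in 0-division cells, 49.3% in 1-division cells and 27.7% in >3-division cells, and its 7 CpGs were at 21.5% to 31.4% in the >3-division library and 47.1% to 52.3% in control. This cluster moved as a whole, with every CpG lower in the >3-division library than in control.

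Clusters differed by whether all their CpGs were partly methylated or low and high CpGs were mixed. By pooled 0-division and 1-division levels, 1965 clusters, or 42.3%, had every CpG from 20% to 80%, and 343, or 7.39%, had at least 1 CpG under 20% and at least 1 at 80% or more. The 1965 uniform clusters averaged 35.8% in the >3-division library and 45.4% in control, with a median difference of -8.78 points, and 39.3% of them fell. The 343 mixed clusters averaged 41.4% in the >3-division library and 46.1% in control, with a median of -3.61 points, and 18.4% fell. Mixed clusters hold, by definition, CpGs under 20% and at 80% or more. Over all partly methylated clusters, CpGs of those 2 levels differed by a mean of -2.44 and -3.92 points, against -8.54 points at 40% to 60%. A smaller difference in points is thus partly built into the definition, and how much of it was not tested. The median depth ratio was 1 in uniform and 0.989 in mixed clusters. The kinds also differed in size and density. Uniform clusters had a median of 4 CpGs and a mean density of 6.395, and mixed clusters 5 CpGs and 7.19. The difference between the kinds was not tested, since neighbouring CpGs and clusters are not replicates.

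Single CpGs left the middle of the range as well. Of 21416 CpGs of these clusters with at least 20 reads in both libraries, 34.0% were under 20% in the >3-division library and 19.6% in control. From 20% to under 80% there were 61.4% in the >3-division library and 75.9% in control. At 80% or more there were 4.64% in the >3-division library and 4.56% in control. At 0% there were 454 CpGs in the >3-division library and 149 in control. Split by their pooled 0-division and 1-division level, CpGs at 40% to 60% differed most, at 39.6% in the >3-division library and 48.1% in control. CpGs under 20% were at 10.98% and 13.4% in the same order, and CpGs at 80% or more at 81.7% and 85.7%. CpGs at the ends of the scale thus moved less in points than those in the middle.

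Only part of the partly methylated clusters lay beside unmethylated CpG-dense sequence. Of the 4642, 534, or 11.5%, were within 1000 bp of a CpG-dense cluster under 10%, against 19.4% of all clusters. The share was 52.8% of clusters of the same density under 20% and 1.85% of those at 60% to 80%. In the same level band it was 5.68% of CpG-poor and 14.6% of CpG-dense clusters. The median distance of the partly methylated clusters was 27738 bp. Within 1000 bp of another partly methylated cluster lay 727, or 15.7%, against 3.20% of all clusters. Within 1000 bp of a cluster at 80% or more lay 248, or 5.34%, against 21.0% of all clusters. In the same level band, 4.425% of CpG-poor and 31.4% of CpG-dense clusters lay that near a partly methylated cluster of intermediate density. Near a cluster at 80% or more lay 2.97% of CpG-poor and 8.83% of CpG-dense clusters. In the 534 clusters near CpG-dense sequence, the CpG nearest to it averaged 22.6% in the >3-division library and 27.4% in control. The CpG farthest from it averaged 29.9% in the >3-division library and 37.6% in control. The nearer CpG was the lower in 58.6% of the 534 clusters in the >3-division library and in 65.4% in control. The level thus rose away from the unmethylated sequence in both libraries, on average and not in every cluster.

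The partly methylated clusters were spread over all 19 autosomes, with 111 on chromosome 16 and 434 on chromosome 11. They made up 2.90% of the clusters of chromosome 3 and 6.55% of those of chromosome 11. The median difference of the >3-division library from control was negative on 19 of 19 chromosomes, from -7.58 points on chromosome 12 to -3.997 points on chromosome 8. The share that fell ran from 21.5% on chromosome 6 to 36.6% on chromosome 12, and the share that rose from 0.625% on chromosome 14 to 6.80% on chromosome 10. Joined at steps of up to 1000 bp, the clusters formed 4244 loci, of which 3915 held 1 cluster. The largest, on chromosome 11 from 83663376 to 83666203, held 6 clusters and 24 CpGs; medians over its clusters were 33.3% in control, 39.1% in 0-division cells, 36.2% in 1-division cells and 27.5% in >3-division cells, and 0 of its 6 clusters fell and 1 rose. Over the 398 neighbouring pairs within loci, the differences of the 2 clusters had a correlation of 0.298, which describes pairs that share a library and a neighbourhood.

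The fall varied with the level, the density and the depth of a cluster. By pooled 0-division and 1-division level, the median difference was -3.99 points at 20% to 30%, -5.88 at 30% to 40%, -7.39 at 40% to 50% and -6.95 at 50% to 60%. By density it was -6.68 points at 4 to 6 CpGs, -5.46 at 6 to 8, -5.10 at 8 to 10 and -4.51 at 10 to 12. By distance to CpG-dense sequence under 10% it was -4.85 points up to 250 bp, -4.07 up to 1000 bp, -4.52 up to 5000 bp and -6.29 beyond. By number of CpGs it was -7.27 points in clusters of 3 CpGs and -3.97 in clusters of 10 or more. Sparser and shorter clusters differed more, and the denser ones also had the lower control levels, at 42.0% for the lowest density and 36.9% for the highest.

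Depth moved with the difference. In the 1161 clusters with the lowest ratio of >3-division to control depth, the median difference was -10.1 points, and 39.4% fell. In the 1161 with the highest ratio the median was -2.23 points, and 18.4% fell. The control means of these groups were 45.7% and 35.1%, so level and depth ratio moved together. With each CpG thinned to the lowest of its 4 coverages, the median over all partly methylated clusters was -5.90 points, and 1176 fell and 94 rose. These are 25.3% and 2.02% of them, against 7.76% and 0.307% of all clusters at equal depth. The depth ratio itself is part of the same 2 libraries, and its part in this trend was not tested.

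**Figure D4:**
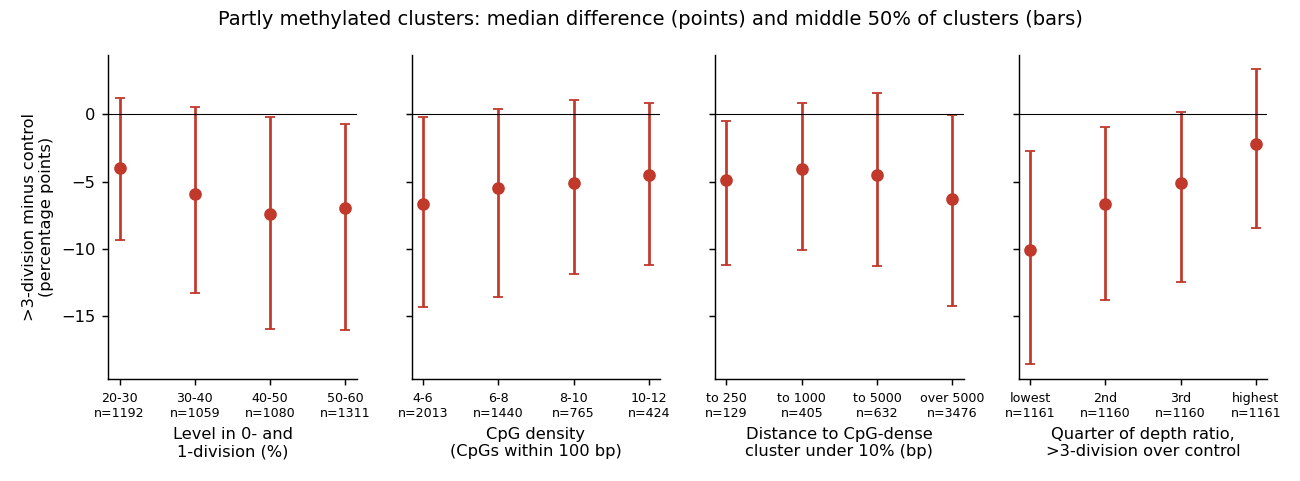
Difference of >3-division minus control (y axis, percentage points) of the partly methylated clusters, split by level, by CpG density, by distance to CpG-dense sequence under 10% and by depth ratio (x axes). Points are medians and bars span the middle 50% of clusters; medians are below 0 in all 16 classes and lie nearest to 0 in the clusters with the highest depth ratio.

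Of the 40 clusters at RefSeq promoters, 34 were not called as lower or higher. Some of the 34 had an adjusted p under 0.05 by Fisher's exact test but differed by under 10 points. Examples are Ccdc24, at -8.11 points, and Spag8, at 5.92 points. The 40 lay between 0% and 67.0% in the >3-division library, with a median of 26.6%, and between 0% and 63.5% in control, with a median of 28.3%. Of the 40, 24 were below control, 4 fell and 2 rose, against 28.4% lower among the 1406 clusters where a match was possible. The median difference was -2.75 points. As the positions had to be matched through sequence, a promoter that was not matched is not known to lack a partly methylated cluster.

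The promoters that fell included those of 2 imprinted genes. Gnas encodes the alpha subunit of the stimulatory G protein from a locus with several promoters that are imprinted in different ways. The matched start is annotated to Gnas, but which of these promoters it is was not determined, and it need not be that of the alpha subunit. The Gnas cluster, with 5 CpGs, was at 27.4% in control, 27.2% in 0-division cells, 56.7% in 1-division cells and 6.45% in >3-division cells, from 135, 92, 180 and 93 reads. The difference of the >3-division library from control was -20.96 points, with a 95% interval of -29.7 to -11.2 points and an adjusted p of 0.000689 by Fisher's exact test. The 1-division library stood above the other 3, so the libraries disagree at this cluster by more than this difference. Mkrn3, a makorin ring-finger gene expressed from the paternal allele, was at 25.2% in control, 20.8% in 0-division cells, 25.3% in 1-division cells and 9.04% in >3-division cells. Its difference was -16.1 points, with an interval of -20.7 to -11.7 points and an adjusted p of 1.97e-11 by Fisher's exact test. The >3-division library lay below the other 3 at both genes.

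The other 2 that fell were Gm3134 and Ptpn20. The predicted gene Gm3134 was at 28.0%, 29.7%, 28.6% and 15.6% in control, 0-division, 1-division and >3-division cells, with an adjusted p of 3.39e-05 by Fisher's exact test. Ptpn20, a protein tyrosine phosphatase, was at 49.3%, 55.7%, 45.3% and 38.7%, with an adjusted p of 0.00654 by Fisher's exact test. With equal weight per CpG the Ptpn20 difference was -8.69 points. Equal depth gave -10.2 points, close to the -10.6 points as read, with an adjusted p of 0.0591 by Fisher's exact test. The 2 that rose were Tmem59l, a relative of the membrane protein gene Tmem59, and Dpep1, a membrane dipeptidase. Tmem59l was at 54.2%, 55.1%, 56.0% and 67.0% in the same order of libraries, and its difference was 12.9 points as read, 1.95 points at equal depth and 1.76 points when each CpG counted alike. Dpep1 was at 19.6%, 21.9%, 19.8% and 34.3%, a difference of 14.7 points that was 9.67 points with equal weight per CpG. Of these 4, Gm3134 alone kept its call under both alternatives. Equal weight per CpG changed only the difference and kept the adjusted p of the summed reads.

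Among promoters of developmental genes, Hoxd10, a homeobox gene of limb patterning, was at 10.5% in control, 21.0% in 0-division cells, 21.0% in 1-division cells and 9.94% in >3-division cells. Pax6, a transcription factor of eye and brain development, was at 16.7%, 19.8%, 24.5% and 18.8%. Hoxd10 and Pax6 were under 20% in control and >3-division cells and met the rule through the libraries that chose the clusters. Their higher levels in those libraries can therefore come from the selection and are not read as a change. Hes7, a Notch target of the segmentation clock, was at 39.4%, 38.4%, 36.3% and 30.1%, and Acta1, the actin of skeletal muscle, at 25.3%, 25.8%, 26.4% and 28.4%. At Hes7 the difference of -9.34 points stayed under the 10 points a call needed. The cluster of Snx10, a sorting nexin, was at 0%, 35.1%, 0% and 0% and met the rule only through the 0-division library. With 94 reads in the >3-division library and 51 in control, the upper 95% Wilson bounds there were 3.93% and 7.0%.

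**Figure D5:**
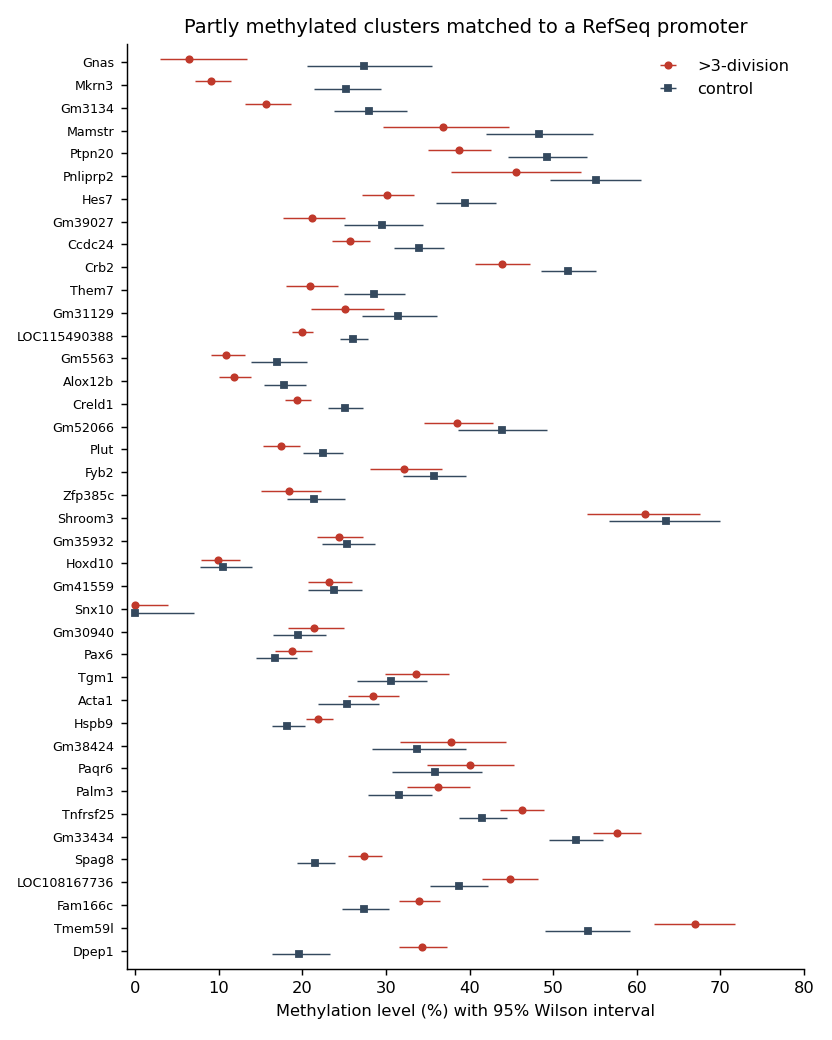
Methylation level (x axis, %) of the 40 partly methylated clusters matched to a RefSeq promoter (y axis, gene symbols, ordered by difference), in the >3-division library (circles) and control (squares). Bars are 95% Wilson intervals, which cover counting error only; Gnas and Mkrn3 are at the top with the largest falls and Dpep1 at the bottom with the largest rise.

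The limits of the rule cut through a continuous range. Just inside the lower level limit, a cluster on chromosome 1 from 135960149 to 135960257 had a pooled level of 20%, and just outside it a cluster on chromosome 4 from 120712061 to 120712219 had 19.98%. Around the upper limit the values were 59.97% inside and 60% outside. Around the density limits they were 4.14 inside and 4 outside, and 11.95 inside and 12 outside.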

How the data were processed

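RRBS libraries of 4 groups, 1 each, were analysed from tables that the authors deposited, which hold 2 read counts per CpG, methylated and unmethylated, on mm9 per the submitters' processing notes. For aligner, methylation caller, conversion check and duplicate removal, the record is: not given in the sources used here. The deposited tables have no header; that the first count is the methylated one was settled from the values. Levels, clusters and density were computed as in the opening, with Python 3.11.15, numpy 2.4.6, pandas 2.3.3 and scipy 1.17.1. Reads were summed per cluster and tested with Fisher's exact test, two-sided, with Benjamini-Hochberg adjustment over 99566 clusters. The test was tested on simulated data with known falls and rises. Intervals are 95% Wilson for levels and Newcombe for differences, and cover counting error only. Clusters were named among those with at least 50 reads in each library. They were the 10 lowest and 10 highest called differences, the 5 with most CpGs and those nearest the limits of the rule. The 3 widest and 3 narrowest control ranges were also named, among clusters with at least 5 CpGs and 20 control reads at each. The promoter match, added after the data were seen, used runs of at least 7 CpGs; 4039 of 4041 such runs over all clusters fell on the cluster's chromosome, and order was kept in 3522 of 3525 neighbouring pairs. The clusters, lists and tests were chosen with earlier results of these data known. Clusters outside the autosomes entered the adjustment and every value given for all clusters, the library-wide odds ratio included.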

Additional observations from a re-analysis of the deposited data

How the results depend on the processing

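No paired analysis was possible because each group has 1 library. Alternatives to the median of -5.79 and the mean of -6.95 points kept the sign in each case. The median and mean were -6.01 and -7.24 points at a coverage minimum of 5 reads, -5.47 and -6.59 at 20 reads, -5.47 and -6.62 with a gap of 50 bp, -6.48 and -7.41 with 200 bp, and -5.44 and -6.55 with equal weight per CpG. At equal depth the median was -5.90 points. A level band of 30% to 50% left 2139 clusters, with -6.45 and -7.47 points. Of these, 704 were lower and 78 higher, or 32.9% and 3.65%. A density over 6 and under 10 left 1813, with -5.03 and -6.34 points. Of these, 498 were lower and 62 higher, or 27.5% and 3.42%. The shares over all clusters, 11.0% and 0.577%, are the same for both bands. The main setting had 1403 lower and 149 higher clusters, or 30.2% and 3.21%. Equal depth left 1176 lower and 94 higher, or 25.3% and 2.02%, against 7.76% and 0.307% of all clusters. A minimum difference of 20 points left 543 lower and 23 higher, or 11.7% and 0.495%, against 3.85% and 0.0773% of all clusters. Dividing reads by the overdispersion between control and the 1-division library left 1069 lower and 78 higher for the factor of all clusters, 1.628, where 7.03% and 0.230% of all clusters were called, and 692 lower and 29 higher for that of the partly methylated clusters, 2.415, an alternative chosen after seeing the data. Against the library-wide odds ratio there were 572 lower and 625 higher, or 12.3% and 13.5%. Over all clusters the same setting called 4.11% lower and 2.83% higher, and why the order differed was not tested. Of the 35 named clusters, 29 kept their direction and side of the threshold with equal weight per CpG and 27 at equal depth. Equal weight changed only the difference and kept the adjusted p of the summed reads, so the test was not redone there. With equal weight the chromosome 1 cluster at 7732181 reversed, to -1.67 points. Depth limits what the test can call, and no alternative can show the spread between cultures.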
